A study of Mus musculus with 12 samples.

Results

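The glutathione transferase genes described here are 10 of the 24532 genes in the table of liver RNA-seq counts, picked by gene symbol. They are 5 genes of the cytosolic alpha class (*Gsta1*, *Gsta2*, *Gsta3*, *Gsta4* and *Gm10639*), 3 of the mu class (*Gstm1*, *Gstm2* and *Gstm3*), 1 of the pi class (*Gstp1*) and the membrane-bound *Mgst1*. Every one of the 10 was among the 14038 genes tested, although *Gm10639* passed the filter on low counts only through its WT ethanol libraries. The study asked how alcohol acts on the liver through the aryl hydrocarbon receptor (AhR), a ligand-activated transcription factor. Whole liver of male C57BL/6 mice, 10 to 12 weeks old at the start, was collected after 5 weeks on a Lieber-DeCarli liquid diet. The diet held 5% (vol/vol) ethanol, which supplied 36% of the calories (EtOH), or was an isocaloric control (con). Mice with hepatocyte deletion of *Ahr* (*Ahr* HKO) carried floxed *Ahr* alleles and Cre under the albumin promoter, and their WT littermates carried the same floxed alleles without Cre. The 4 groups, WT con, WT EtOH, *Ahr* HKO con and *Ahr* HKO EtOH, held 3 livers each.

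Glutathione transferases join the tripeptide glutathione to electrophilic compounds, which makes these more soluble and ready for export from the cell, and several of them also reduce lipid peroxides. The alpha, mu and pi enzymes are cytosolic dimers, whereas MGST1 sits in membranes of the endoplasmic reticulum and mitochondria. In liver many of their genes are induced by foreign chemicals through NRF2, which binds antioxidant response elements, and through AhR and the nuclear receptors CAR and PXR.

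Libraries held 46306518 to 74336255 counted reads, and normalized levels are given as CPM, that is counts brought to a common library size with TMM factors. *Ahr* itself measured 20.1, 16.6 and 18.3 CPM in WT con but 65.5, 41.3 and 63.3 CPM under the label *Ahr* HKO con. It was thus higher, not lower, under the knockout label, with a log2 fold change of 1.63 ± 0.187 (SE, *n* = 3 per group, adjusted *P* = 0.00167, edgeR). In the ethanol groups it measured 30.5, 20.8 and 23.5 CPM in WT and 41.8, 32.1 and 24.7 CPM in *Ahr* HKO. The floxed allele removes exon 2, and the whole-gene counts do not separate that exon from the rest. These counts therefore do not check the knockout, and each genotype below is the one on the label, with Cre restricted to hepatocytes so that other liver cells keep *Ahr*. All 6 hepatocyte markers had counts in every group, and their summed level ranged from 71207 to 113412 CPM over the 12 libraries. In bulk liver, fewer cells of a type and less RNA per cell cannot be told apart.

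Part of the family is hard to tell apart by sequence. *Gsta4*, *Gsta1*, *Gm10639* and *Gsta2* lie together on chromosome 9 (GRCm38, chr9:78191966-78347192), with *Gm3776*, a further alpha class gene, between *Gsta1* and *Gm10639*. The coding sequence of *Gsta1* (669 bases) was 99.7% identical to that of *Gm3776*, 97.6% to that of *Gsta2* and 97.0% to that of *Gm10639*, but 69.4% to that of *Gsta4*. Of all 100-base stretches of the *Gsta1* transcript, 81.8% also occurred letter for letter in a transcript of another gene, most often *Gm3776*. This share was 42.5% for *Gm10639* and 35.0% for *Gsta2*, so that single values of these 3 genes are uncertain. *Gstp1* (chr19:4035411-4037912) shared 52.8% of such stretches with *Gstp2*. The mu genes lie side by side on chromosome 3 (chr3:107963696-108017973) and shared far fewer, 7.7% for *Gstm1*, 0.6% for *Gstm2* and 13.8% for *Gstm3*. *Gsta3* (chr1:21240565-21265575), *Gsta4* and *Mgst1* (chr6:138140527-138156755) shared none.

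The promoters of 4 members are shown, those of *Gsta1*, *Gm10639* and *Gsta2*, which are near copies of each other, and that of *Gstp1*. The sequences are from RefSeq (GRCm38.p6), run 5′ to 3′ on the gene's own strand from 176 bases before the annotated start through the first 24 bases of the gene, and lie at chr9:78230493-78230692 (plus strand), chr9:78289752-78289951 (plus), chr9:78347122-78347321 (minus) and chr19:4037889-4038088 (minus). Capitals mark GCGTG, the core letters of the element that AhR binds, and TGANNNNGC, the core letters of the antioxidant response element, on either strand.
Gsta1: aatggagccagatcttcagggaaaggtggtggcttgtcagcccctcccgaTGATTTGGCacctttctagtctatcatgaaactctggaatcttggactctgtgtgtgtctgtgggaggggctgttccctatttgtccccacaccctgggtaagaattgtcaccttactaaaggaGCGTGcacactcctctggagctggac
Gm10639: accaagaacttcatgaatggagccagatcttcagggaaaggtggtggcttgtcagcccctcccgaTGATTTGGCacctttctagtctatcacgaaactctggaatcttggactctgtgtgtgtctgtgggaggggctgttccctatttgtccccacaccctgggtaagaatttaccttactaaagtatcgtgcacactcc
Gsta2: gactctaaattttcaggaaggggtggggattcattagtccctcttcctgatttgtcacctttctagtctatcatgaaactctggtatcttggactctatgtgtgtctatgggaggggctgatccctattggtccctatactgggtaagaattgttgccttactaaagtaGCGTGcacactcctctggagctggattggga
Gstp1: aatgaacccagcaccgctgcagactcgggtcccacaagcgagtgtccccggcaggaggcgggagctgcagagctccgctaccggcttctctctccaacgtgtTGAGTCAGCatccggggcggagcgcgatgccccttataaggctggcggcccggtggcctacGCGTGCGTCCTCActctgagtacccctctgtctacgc
In *Gsta1* the GCGTG match spanned the annotated start, and in *Gsta2* it lay just before it. The *Gm10639* sequence held the TGANNNNGC match of *Gsta1* but no GCGTG. That match begins at −126 from the annotated start in *Gsta1* and at −111 in *Gm10639*, so the printed stretches are cut at different points. Aligned end to end with gaps counted as differences, the sequences were 84.7% identical, a value that this offset lowers. *Gsta2* held GCGTG and no TGANNNNGC. In *Gstp1* the capitals just before the start are a GCGTG match that overlaps a reverse-strand TGANNNNGC match by 1 base. Over the full 300-base windows (250 bases before the start and 50 after), 9 members had a sequence, of which 4 held GCGTG (*Gsta1*, *Gsta2*, *Gstm1* and *Gstp1*) and 6 held TGANNNNGC (*Gsta1*, *Gsta3*, *Gm10639*, *Gstm3*, *Gstp1* and *Mgst1*). Among all 32851 windows of this length, 32.4% held GCGTG and 41.3% held TGANNNNGC on either strand. *Gstm3*, which also differed between genotypes on ethanol but is not shown, held 0 GCGTG and 2 TGANNNNGC matches.

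Expression per gene length gave the order of the members in the liver. By the deposited FPKM, *Mgst1* led in WT con (2664 ± 162, SD, *n* = 3), followed by *Gstp1* (1668 ± 190), *Gsta3* (569 ± 107) and *Gstm1* (455 ± 88.1). *Gstm2*, *Gsta4* and *Gstm3* had mean FPKM of 35.2, 22.7 and 15.6 there, and *Gsta2*, *Gsta1* and *Gm10639* of 4.62, 1.04 and 0.390. The libraries of *Gsta3* and *Gstm1* overlapped (479 to 688 and 399 to 557), as did those of *Gsta4* and *Gstm3*. In WT EtOH *Gstm1* was first, with an FPKM of 4301 ± 584, ahead of *Mgst1* at 2742 ± 68.9. *Gstp1* (1225 ± 116) and *Gsta3* (1124 ± 93.6) overlapped behind them. The summed FPKM of the 10 members was 5436 ± 381 in WT con and 10280.1 ± 777 in WT EtOH, and 4298 ± 50.4 in *Ahr* HKO con and 8384 ± 876 in *Ahr* HKO EtOH. *Gstm1* supplied 8.33% of that sum in WT con, 41.7% in WT EtOH, 10.5% in *Ahr* HKO con and 23.5% in *Ahr* HKO EtOH.

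**Figure D1:**
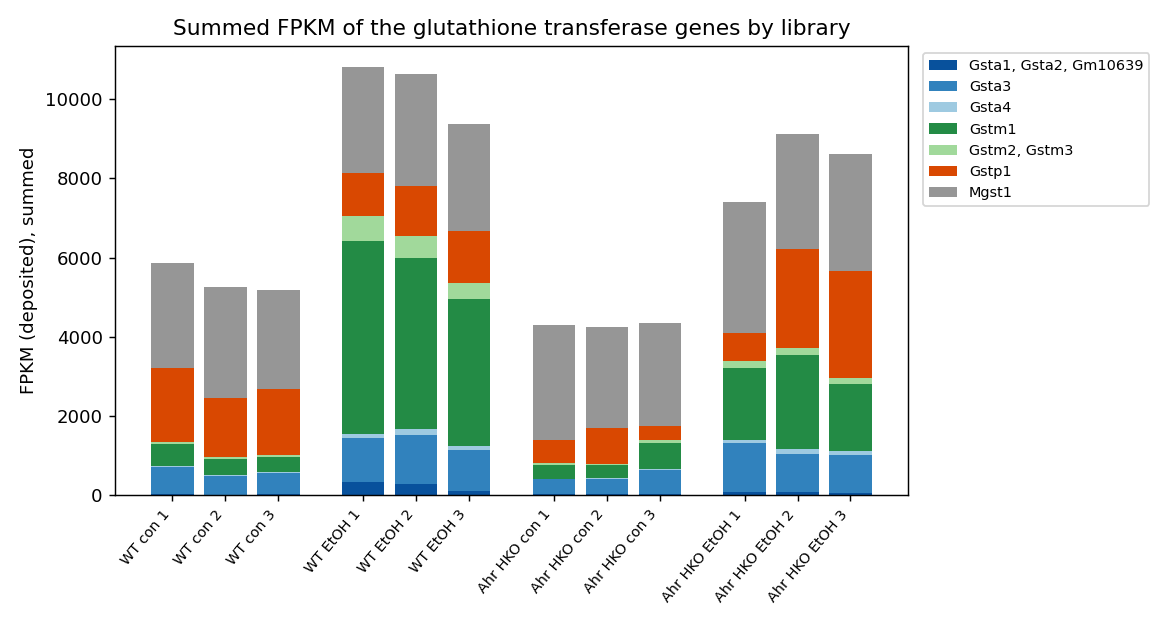
Stacked bars of the deposited FPKM of the 10 glutathione transferase genes, summed for each of the 12 libraries (horizontal axis, by group and replicate). The green *Gstm1* band is widest in the 3 WT EtOH libraries, and the orange *Gstp1* band is narrow in the first *Ahr* HKO EtOH library, at 697 FPKM against 2517 and 2711 in the other two.

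Whether alcohol changed these genes in WT liver was asked first. Of the 9 members other than *Gm10639*, 7 were higher in WT EtOH than in WT con (*Gsta1* to *Gsta4* and the 3 mu genes), 1 was lower (*Gstp1*), and *Mgst1* did not pass the test (edgeR, adjusted *P* under 0.05). Over all genes tested, 4.24% were called higher and 4.48% lower in this comparison. The median log2 fold change of the 9 members was 2.32, against 0.01 over all genes. *Gm10639* entered the test only because its WT EtOH libraries were high, so its values against WT EtOH are given as a description, with no test.

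*Gsta1*, an inducible alpha enzyme, measured 1.38, 0.571 and 0.940 CPM in the WT con libraries and 77.3, 57.6 and 13.1 CPM in WT EtOH. The ethanol libraries all lay above the control ones, with the third far below its group. The log2 fold change was 5.69 ± 0.724 (SE, adjusted *P* = 0.00619). *Gsta2*, its close relative, went from 7.79, 2.27 and 2.49 CPM to 170, 139 and 62.4 CPM. This was a log2 fold change of 4.89 ± 0.616 (adjusted *P* = 0.00610), and 5.70 without the first WT con library, again with the third ethanol library lowest. *Gm10639*, a predicted alpha class gene, had 31, 0 and 20 reads in WT con and 1091, 951 and 361 in WT EtOH. The same order of the 3 ethanol livers thus recurred in these 3 near-identical genes, which can share reads. With their counts summed to 1 feature the log2 fold change was 5.09 ± 0.643 (adjusted *P* = 0.00612).

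*Gsta4*, whose enzyme conjugates 4-hydroxynonenal, a product of lipid peroxidation, measured 33.4, 16.2 and 19.3 CPM in WT con and 120, 135 and 90.2 CPM in WT EtOH. All ethanol libraries were above all controls, with a log2 fold change of 2.32 ± 0.290 (adjusted *P* = 0.00598). *Gsta3*, which in mice detoxifies the epoxide of aflatoxin B1, was abundant in both groups. It rose from 1017, 718 and 797 CPM to 1561, 1509 and 1380 CPM, the smallest rise among the alpha genes (log2 fold change 0.81 ± 0.158, adjusted *P* = 0.0246). This call was lost when the second or the third WT con library or the first or second WT EtOH library was left out, with adjusted *P* values of 0.0520 to 0.0930.

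Among the mu genes, whose enzymes conjugate a wide range of electrophiles, *Gstm1* measured 760, 570 and 542 CPM in WT con and 6331, 4915 and 4554 CPM in WT EtOH. This was the largest gain in CPM of any member, with a log2 fold change of 3.08 ± 0.214 (adjusted *P* = 0.000940). *Gstm3* went from 25.4, 15.7 and 18.3 CPM to 567, 480 and 381 CPM. Its log2 fold change of 4.59 ± 0.246 had the lowest adjusted *P* value among the members, 0.000365. *Gstm2* was tight in WT con, at 38.4, 39.9 and 39.0 CPM, and spread in WT EtOH, at 153, 96.5 and 76.6 CPM. Its log2 fold change was 1.48 ± 0.238 (adjusted *P* = 0.0144), and the call was lost without any one of the 3 WT con libraries (adjusted *P* = 0.0589 to 0.0605).

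*Gstp1*, the pi class enzyme, also known to bind the stress kinase JNK, moved the other way. It measured 1461, 1183 and 1299 CPM in WT con and 815, 838 and 920 CPM in WT EtOH, and the groups did not overlap. The log2 fold change was −0.62 ± 0.129 (adjusted *P* = 0.0305). The call was lost when any one of the 6 libraries was left out (adjusted *P* = 0.0502 to 0.0940) and under 6 of 11 other alternatives, library totals in place of TMM factors among them (adjusted *P* = 0.0603 to 0.576). *Mgst1*, which encodes a membrane enzyme with transferase and peroxidase activity, measured 2657, 2862 and 2485 CPM in WT con and 2541, 2342 and 2444 CPM in WT EtOH. The groups overlapped, with a log2 fold change of −0.13 ± 0.129 (adjusted *P* = 0.580).

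Some markers of stellate cells moved with the diet in WT. Of 5 tested, 2 were higher in WT EtOH, against 4.24% of all genes. The summed level of the 5 was 187 to 246 CPM in WT con and 267 to 312 CPM in WT EtOH, with none at 0. Of 6 hepatocyte markers 1 was lower, against 4.48% of all genes, and no marker of the other cell types was called. Their part in the results for the transferase genes was not tested.

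**Figure D2:**
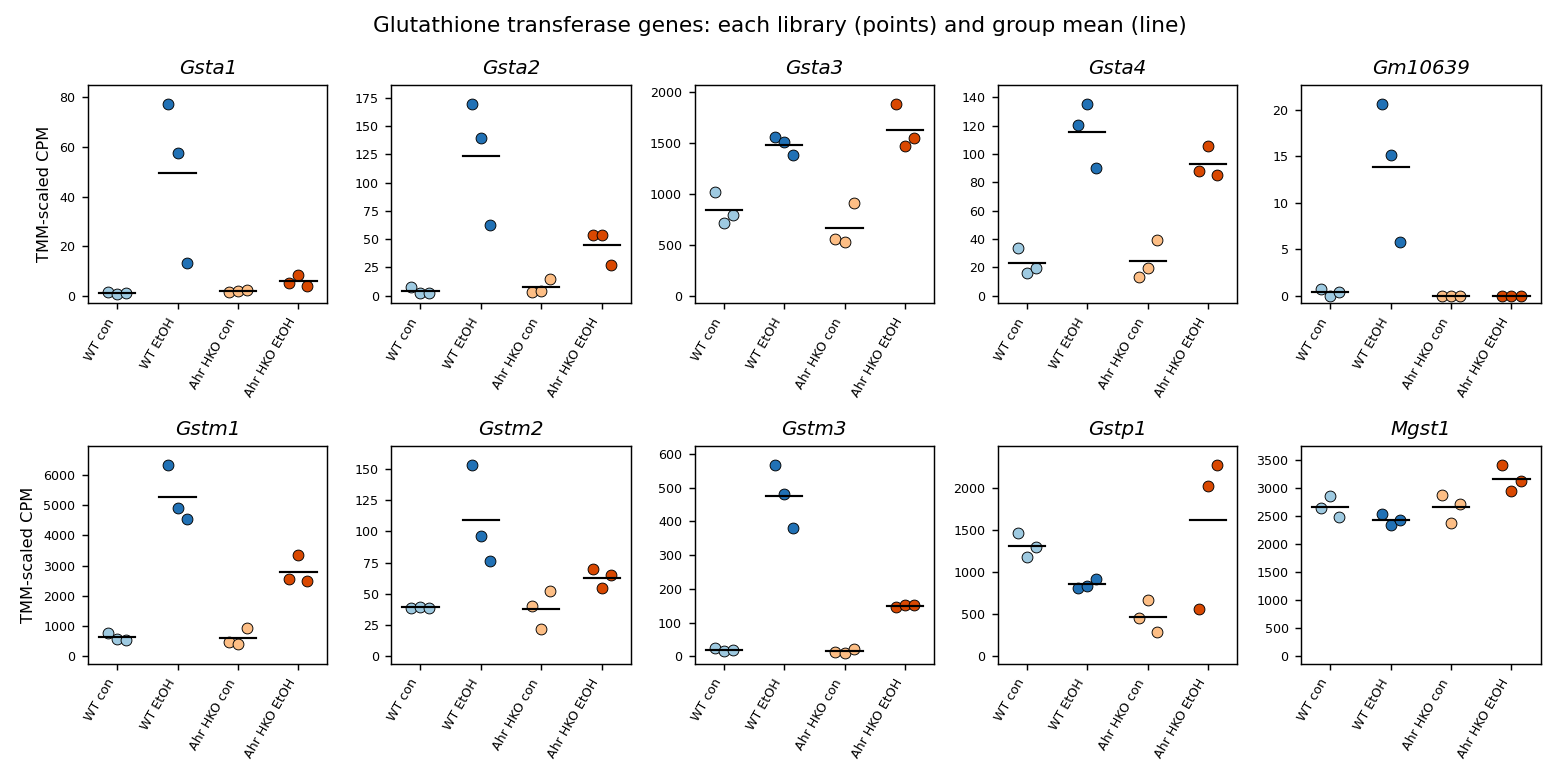
TMM-scaled CPM of each glutathione transferase gene in the 4 groups, one panel per gene with its own linear vertical axis. Points are the 3 livers of a group in replicate order and the line is their mean. The alpha and mu genes sit higher in WT EtOH than in WT con, *Gm10639* is at 0 in all 6 *Ahr* HKO livers, and *Gstp1* is split in *Ahr* HKO EtOH (564, 2017 and 2271 CPM).

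On the control diet few of these genes differed between the genotypes. Only *Gstp1* was called lower in *Ahr* HKO con than in WT con and 0 members were called higher (edgeR), although 15.3% of all genes were called higher and 14.4% lower in this comparison. At an unadjusted *P* under 0.05, 1 member was higher (*Gsta1*) and 2 were lower, against 21.2% and 21% of all genes, and DESeq2 and limma also called 0 members higher. *Gstp1* measured 454, 672 and 283 CPM in *Ahr* HKO con, all below the lowest WT con library (1183 CPM). The log2 fold change was −1.48 ± 0.297 (adjusted *P* = 0.0103), and the call held with each of the 6 libraries left out in turn (adjusted *P* = 0.00519 to 0.0361).

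The alpha and mu genes overlapped between the genotypes on the control diet, apart from *Gsta1*. *Gsta1* measured 1.44, 1.64 and 2.26 CPM in *Ahr* HKO con against 0.571 to 1.38 CPM in WT con, with a log2 fold change of 0.89 ± 0.368 (adjusted *P* = 0.1096). *Gm10639* had 0 reads in each *Ahr* HKO con library, a level at least 6.76-fold lower than in WT con at a floor of 3 reads per library. Because 1 WT con library also had 0 reads, the groups overlapped, and the adjusted *P* value was 0.0735. It was 0.0249 without the second WT con library. *Mgst1* measured 2876, 2387 and 2723 CPM in *Ahr* HKO con, with a log2 fold change of −0.0031 ± 0.144 (adjusted *P* = 0.989).

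The third liver of *Ahr* HKO con stood above its group in 7 genes. It held 14.6 CPM of *Gsta2* against 3.10 and 3.75 CPM in the other two, 39.3 CPM of *Gsta4* against 13.4 and 19.5, and 945 CPM of *Gstm1* against 485 and 421. For *Gsta3* it held 913 CPM against 557 and 529, and for *Gstm3* 22.7 CPM against 12.4 and 10.3. The gap was smaller for *Gsta1* (2.26 CPM against 1.44 and 1.64) and *Gstm2* (52.6 CPM against 40.5 and 21.7). The same liver was the lowest of its group in *Gstp1*. Without it, *Gsta3* and *Gstm3* were called lower in *Ahr* HKO con (adjusted *P* = 0.0395 and 0.0394, log2 fold changes −0.64 and −0.81).

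Within *Ahr* HKO livers, ethanol again went with higher levels of most members. Between *Ahr* HKO con and *Ahr* HKO EtOH, 7 of the 9 members with reads were called higher and 0 lower, while 15% of all genes were called higher and 16.1% lower (edgeR). At an unadjusted *P* under 0.05, which 22.9% of all genes passed as lower, and by DESeq2 and limma, 0 members were lower. The median log2 fold change was 1.78 over the 9 members and −0.02 over all genes. *Gstm2* and *Mgst1* did not pass the test, and *Gm10639* had 0 reads in all 6 libraries.

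*Gsta1* measured 5.12, 8.41 and 3.97 CPM in *Ahr* HKO EtOH, all above the highest *Ahr* HKO con library (2.26 CPM), with a log2 fold change of 1.72 ± 0.321 (adjusted *P* = 0.00897). *Gsta2* measured 53.7, 53.6 and 26.8 CPM, with a log2 fold change of 2.65 ± 0.621 (adjusted *P* = 0.0185). It was 3.71 without the third *Ahr* HKO con library, and the call was lost without the second (adjusted *P* = 0.0598). *Gsta3* reached 1883, 1468 and 1547 CPM and *Gsta4* 88.2, 105 and 85.1 CPM, without overlap with *Ahr* HKO con in either gene. Their log2 fold changes were 1.29 ± 0.239 and 1.95 ± 0.372 (adjusted *P* = 0.00872 and 0.00964).

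*Gstm3* measured 146, 151 and 151 CPM in *Ahr* HKO EtOH, the tightest group of any mu gene relative to its mean apart from *Gstm2* in WT con. Its log2 fold change over *Ahr* HKO con was 3.30 ± 0.301 (adjusted *P* = 0.00141). *Gstm1* measured 2569, 3336 and 2481 CPM, a log2 fold change of 2.18 ± 0.329 (adjusted *P* = 0.00476). *Gstm2*, at 69.9, 54.5 and 64.8 CPM, lay above the *Ahr* HKO con libraries (21.7 to 52.6 CPM), but with a log2 fold change of 0.72 ± 0.295 it was not called (adjusted *P* = 0.103). It was called without the third *Ahr* HKO con library (adjusted *P* = 0.0377).

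*Gstp1* measured 564, 2017 and 2271 CPM in *Ahr* HKO EtOH, so that the first liver lay inside the range of *Ahr* HKO con and the other two far above it. The log2 fold change was 1.78 ± 0.537 (adjusted *P* = 0.0427). Without the first *Ahr* HKO EtOH liver it was 2.19 (adjusted *P* = 0.0120), whereas leaving out any one of the other 5 libraries ended the call (adjusted *P* = 0.0594 to 0.122), as did 5 of 11 other alternatives (adjusted *P* up to 0.198). *Mgst1*, at 3421, 2949 and 3140 CPM, was above all *Ahr* HKO con libraries, with a log2 fold change of 0.25 ± 0.144 (adjusted *P* = 0.218).

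Macrophage and some endothelial markers fell in the same comparison. All 5 Kupffer cell and macrophage markers were called lower in *Ahr* HKO EtOH, as were 2 of 4 sinusoidal endothelial markers, against 16.1% of all genes. The summed level of the macrophage markers was 147 to 438 CPM in *Ahr* HKO con and 99.8 to 121 CPM in *Ahr* HKO EtOH. No marker of either list was at 0 in a group. Of the other types, 1 of 4 cholangiocyte markers was lower, and 1 of 6 hepatocyte and 1 of 5 stellate markers were higher, against 15% of all genes. The part of these markers in the results for the transferase genes was not tested.

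**Figure D3:**
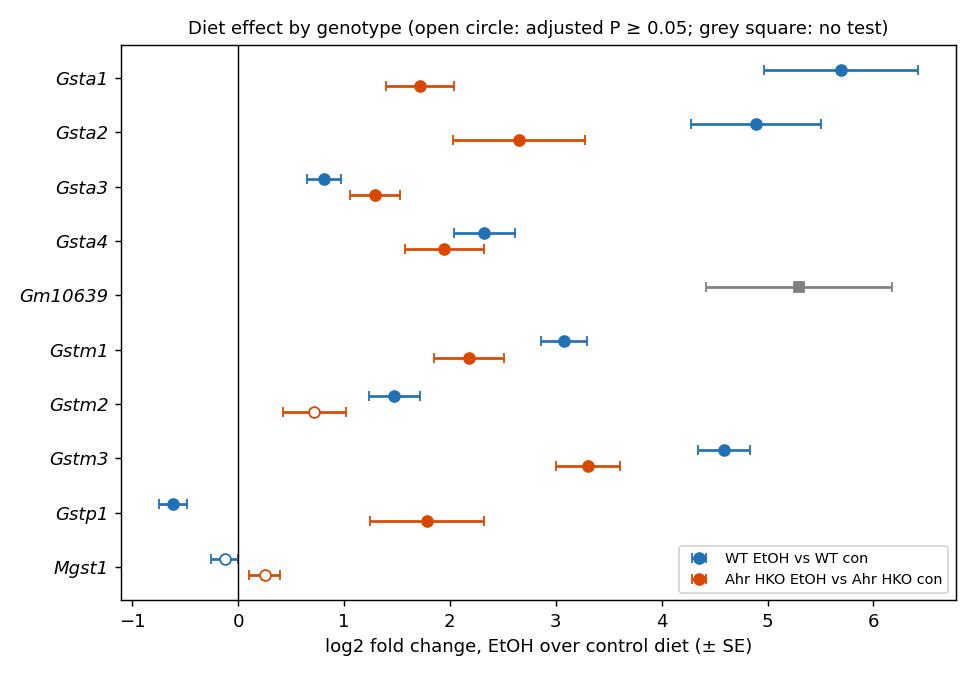
Log2 fold change of ethanol over control diet (horizontal axis, edgeR estimate ± SE, *n* = 3 livers per group) for each glutathione transferase gene in WT (blue) and *Ahr* HKO (orange). Filled circles passed an adjusted *P* of 0.05, the grey square of *Gm10639* carries no test, and that gene has no *Ahr* HKO point because it had 0 reads there. *Gsta1* (5.69 against 1.72) and *Gstp1* (−0.62 against 1.78) are furthest apart.

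Whether the response to ethanol differed by genotype was tested as the interaction, the diet effect in *Ahr* HKO minus that in WT, with all 12 libraries. Of the 9 members with a value, 2 were negative (*Gsta1* and *Gstm3*), 1 was positive (*Gstp1*) and 6 did not pass. Over all genes, 11.2% were positive and 11.1% negative by the same rule. *Gsta1* had the most negative value, −3.97 ± 0.806 on the log2 scale (adjusted *P* = 0.00649), and kept its call with each of the 12 libraries left out in turn (values −4.42 to −3.49, adjusted *P* up to 0.0198). With the reads of *Gsta1*, *Gsta2* and *Gm10639* summed, the value was −2.58 ± 0.862 and was no longer called (adjusted *P* = 0.0516). With those of *Gm3776* added to the sum it was −2.77 ± 0.820 (adjusted *P* = 0.0331).

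*Gstm3* had an interaction of −1.28 ± 0.385 (adjusted *P* = 0.0347), which held with only 4 of the 12 libraries left out. The call was lost without the second or the third WT con library, the first or second WT EtOH library, the third *Ahr* HKO con library or any one of the *Ahr* HKO EtOH libraries (adjusted *P* = 0.0513 to 0.0822). *Gstp1* had an interaction of 2.40 ± 0.603 (adjusted *P* = 0.0170), held with each of the 12 libraries left out in turn (adjusted *P* up to 0.0428), and was not called by limma on FPKM (adjusted *P* = 0.0675 to 0.150). The values of *Gsta2*, *Gstm1* and *Gstm2* were −2.24 ± 0.908, −0.90 ± 0.401 and −0.76 ± 0.416, with adjusted *P* values of 0.0984, 0.130 and 0.215. With 1 library left out the value of *Gsta2* ranged from −3.04 without the first WT con library, where it was called (adjusted *P* = 0.0446), to −1.19 without the third *Ahr* HKO con library (adjusted *P* = 0.291). *Gstm2* ranged from −1.04 to −0.42, the latter without the first WT EtOH library (adjusted *P* = 0.453), and was called without the second *Ahr* HKO con library (adjusted *P* = 0.0488). *Gsta3* and *Mgst1* had positive values of 0.48 ± 0.298 and 0.38 ± 0.174 (adjusted *P* = 0.269 and 0.139), and *Gsta4* had −0.38 ± 0.506 (adjusted *P* = 0.635). *Gsta3* was called without the third *Ahr* HKO con library (adjusted *P* = 0.0354).

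Some markers of several cell types were called in the same interaction, where 11.2% of all genes were positive and 11.1% negative (edgeR). Of 5 Kupffer cell and macrophage markers 2 were negative, named here after their values were seen. These were *Marco* (−4.62 ± 1.03, adjusted *P* = 0.0102) and *Adgre1* (−2.33 ± 0.724, adjusted *P* = 0.0398). Also negative were 1 of 4 cholangiocyte and 1 of 4 sinusoidal endothelial markers, while 2 of 6 hepatocyte markers were positive. Their part in the interaction of the transferase genes was not tested.

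The ethanol groups of both genotypes were then compared directly. Of the 9 members other than *Gm10639*, 1 was called lower in *Ahr* HKO EtOH than in WT EtOH (*Gstm3*) and 0 were called higher (edgeR), while 0.684% of all genes were called higher and 0.378% lower. At an unadjusted *P* under 0.05, 5 of the 9 were lower and 1 (*Mgst1*) was higher, against 11.4% and 9.6% of all genes. DESeq2 called 5 lower and *Mgst1* higher, against 5.71% and 4.87% of all genes, and limma on FPKM called 0 higher. The median log2 fold change of the 9 members was −0.79, against −0.01 over all genes.

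*Gm10639* had 0 reads in each *Ahr* HKO EtOH library against 361 to 1091 in WT EtOH, a level at least 265-fold lower at a floor of 3 reads per library. The sum of *Gsta1*, *Gsta2* and *Gm10639* was lower by a log2 fold change of −1.89 ± 0.455 and was not called (adjusted *P* = 0.0922). *Gm10639* and *Gsta2* coding sequences are 98.5% identical, and how the deposited counting divided their shared reads is not given in the sources used here.

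*Gstm3* lay at 146 to 151 CPM in *Ahr* HKO EtOH and at 381 to 567 CPM in WT EtOH, a log2 fold change of −1.67 ± 0.156 (adjusted *P* = 0.0118). The call was lost without the second WT EtOH or the third *Ahr* HKO EtOH library (adjusted *P* = 0.0505 and 0.0782). *Gsta1*, *Gsta2*, *Gstm1* and *Gstm2* also did not overlap between the groups and had log2 fold changes of −3.07 ± 0.632, −1.47 ± 0.408, −0.91 ± 0.188 and −0.79 ± 0.250, but were not called (adjusted *P* = 0.0708, 0.119, 0.0708 and 0.147). *Gsta1* was called without the third WT EtOH library (adjusted *P* = 0.0211). *Mgst1* did not overlap either but was higher in *Ahr* HKO EtOH, and was not called (0.38 ± 0.120, adjusted *P* = 0.149, edgeR). How many of all genes did not overlap was not counted. *Gsta3* and *Gsta4* overlapped, at log2 fold changes of 0.14 ± 0.136 and −0.31 ± 0.167 (adjusted *P* = 0.592 and 0.331). *Gstp1* also overlapped, at 0.91 ± 0.452 (adjusted *P* = 0.296), and was called higher (1.32, adjusted *P* = 0.0236) without the first *Ahr* HKO EtOH liver.

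Genes whose profile over the 12 libraries was most like that of a member were ranked by the root mean square difference of centred log2 CPM among 11870 genes with a mean count of at least 50. *Gsta1* was closest to *Gm3776* (0.311, against a spread of *Gsta1* itself of 2.24, SD), with which it shares sequence, then to *Abcc4*, an efflux transporter (0.531), and *Cbr3*, a carbonyl reductase (0.874). *Gstm3* (SD 2.20) was closest to *Ugt1a9*, a glucuronosyltransferase (0.508), *Cyp2a5*, a cytochrome P450 (0.597), and *Nqo1*, a quinone reductase (0.633). *Gstp1* (SD 0.878) was closest to *Gstp2* (0.0587), with which it shares sequence, then to *Ppargc1b* (0.378) and *Tonsl* (0.439). *Mgst1*, with an SD of only 0.168, was closest to *Lap3*, an aminopeptidase (0.0738), and to the mitochondrial ribosomal protein genes *Mrps25* (0.0807) and *Mrpl45* (0.0810). The libraries of these profiles are shared, so the values are a description.

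Other glutathione transferase genes were listed with relatives of *Mgst1* in the microsomal class, 17 further tested genes together. Not all of these relatives are transferase genes. In WT, 6 of the 17 were higher on ethanol and 2 lower, against 4.24% and 4.48% of all genes, with a median log2 fold change of 0.45. The 6 with the largest changes were *Gm3776* (5.72 ± 0.763, adjusted *P* = 0.00768), the mu gene *Gstm4* (2.55 ± 0.146, 0.000406), *Mgst3* (2.55 ± 0.178, 0.000940), the prostaglandin E synthase gene *Ptges* (2.31 ± 0.322, 0.00890) and the theta genes *Gstt3* (2.13 ± 0.276, 0.00685) and *Gstt1* (0.85 ± 0.131, 0.0131). *Gstp2*, the neighbour of *Gstp1*, was 1 of the 2 that were lower (−0.67 ± 0.119, 0.0187). In *Ahr* HKO, 9 of the 17 were higher on ethanol and 8 were not called, while 15% of all genes were higher and 16.1% lower. On the control diet 1 was lower in *Ahr* HKO, *Gstp2* (−1.60 ± 0.277, adjusted *P* = 0.00629), and 16 were not called. Over all genes, 15.3% were higher and 14.4% lower there. In the interaction 4 of the 17 were positive and 1 negative, against 11.2% and 11.1% of all genes. *Gm3776* was negative (−4.25 ± 0.881, adjusted *P* = 0.00713) and *Gstp2* positive (2.57 ± 0.603, adjusted *P* = 0.0125), and these share sequence with *Gsta1* and *Gstp1*. The other 3 positive genes, named after their values were seen, were *Gstz1* (0.65 ± 0.195, adjusted *P* = 0.0338), *Gsto1* (0.54 ± 0.164, 0.0352) and *Gstk1* (0.65 ± 0.116, 0.00353).

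Genes that make, recycle and export glutathione and its conjugates formed the next list, with 22 tested. Without *Slc7a11* and *Gpx2*, which passed the filter only through WT EtOH, 7 of 20 were higher and 1 lower in WT EtOH than in WT con (median log2 fold change 0.31). Over all genes, 4.24% were higher and 4.48% lower there. Of the 22, 7 were higher and 1 lower in *Ahr* HKO EtOH than in *Ahr* HKO con (median 0.18), against 15% and 16.1% of all genes. On the control diet 5 of 20 with a value were higher and 6 lower in *Ahr* HKO, against 15.3% and 14.4%. In the interaction 3 of 20 were positive and 6 negative, against 11.2% and 11.1%. *Gclc*, which encodes the catalytic subunit of the enzyme that limits glutathione synthesis, rose in WT (1.68 ± 0.232, adjusted *P* = 0.00877) and was already higher in *Ahr* HKO con than in WT con (1.14 ± 0.240, adjusted *P* = 0.0123). Its interaction was −1.52 ± 0.313 (adjusted *P* = 0.00682). *Gclm*, the gene of the other subunit, was lower in *Ahr* HKO con than in WT con (−0.60 ± 0.0950, adjusted *P* = 0.00477, edgeR). On ethanol *Gclm* was not called in WT (0.30 ± 0.117, adjusted *P* = 0.162) and rose in *Ahr* HKO (0.64 ± 0.0974, adjusted *P* = 0.00490). The interaction of *Gclm* was not called (0.34 ± 0.147, adjusted *P* = 0.114). *Slc7a11*, a cystine transporter, had 0 reads in WT con and in all *Ahr* HKO libraries and 0.566, 0.461 and 0.239 CPM in WT EtOH, at least 7.02-fold higher than WT con. *Gpx2*, a glutathione peroxidase, was at least 6.55-fold higher in WT EtOH than in WT con. The efflux transporters *Abcc4* (5.36 ± 0.323, adjusted *P* = 0.000534) and *Abcc3* (1.53 ± 0.262, adjusted *P* = 0.0168) rose in WT. Both also rose in *Ahr* HKO (2.37 ± 0.542 and 1.11 ± 0.181, adjusted *P* = 0.0171 and 0.00602, edgeR). The interaction was called for *Abcc4* (−2.99 ± 0.679, adjusted *P* = 0.0108) but not for *Abcc3* (−0.42 ± 0.341, adjusted *P* = 0.404). *Nat8*, whose enzyme acetylates cysteine conjugates in the last step to mercapturic acids, was the 1 gene that fell in WT (−1.38 ± 0.161, adjusted *P* = 0.00497), and it rose in *Ahr* HKO (1.55 ± 0.280, adjusted *P* = 0.00820).

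Regulators of transferase genes and other genes of their targets gave a further reference. Of 19 tested, 11 were higher in WT EtOH than in WT con and 8 were not called (median log2 fold change 0.72), while 4.24% of all genes were higher. In *Ahr* HKO EtOH against *Ahr* HKO con, 7 were higher and 4 lower (median 0.34), against 15% and 16.1% of all genes. On the control diet 7 were higher and 2 lower in *Ahr* HKO, against 15.3% and 14.4%. In the interaction 0 were positive and 6 negative, against 11.2% and 11.1%. *Cyp2b10*, a CAR target, went from 0.262, 0 and 0 CPM in WT con to 408, 46.8 and 94.5 CPM in WT EtOH. It also rose in *Ahr* HKO (5.67 ± 1.11, adjusted *P* = 0.0105, edgeR). *Cyp3a11* and *Cyp2c55*, listed with it as CAR and PXR targets, were not called in WT (0.93 ± 0.366 and 2.14 ± 0.554, adjusted *P* = 0.161 and 0.0562). Within *Ahr* HKO both were higher on ethanol (1.75 ± 0.253 and 2.76 ± 0.463, adjusted *P* = 0.00425 and 0.00651). *Nqo1*, an NRF2 and AhR target, rose in both genotypes (3.21 ± 0.274 and 2.45 ± 0.303, adjusted *P* = 0.00188 and 0.00285), as *Gstm1* and *Gstm3* did. *Cyp1a1*, the classic AhR target, was low, at 0.204 to 0.349 CPM in WT con and 1.02 to 1.66 CPM in WT EtOH (2.39 ± 0.393, adjusted *P* = 0.0155). It was also higher in *Ahr* HKO con (1.495 ± 0.460, adjusted *P* = 0.0458). *Cyp1a2*, a further AhR target, also rose in WT (1.15 ± 0.184, adjusted *P* = 0.0142, edgeR). On both diets it was lower in *Ahr* HKO than in WT (−1.67 ± 0.399 on control diet and −0.73 ± 0.118 on ethanol, adjusted *P* = 0.0191 and 0.0457). *Cyp1b1* and *Tiparp*, listed with them as AhR targets, were not called in these comparisons, nor was *Cyp1a1* between the ethanol groups. *Srxn1*, *Hmox1* and *Ugdh*, NRF2 targets, rose in WT on ethanol (2.19 ± 0.201, 1.66 ± 0.262 and 1.23 ± 0.107, adjusted *P* = 0.00220, 0.0137 and 0.00189). They were also higher in *Ahr* HKO con than in WT con (3.33 ± 0.190, 1.09 ± 0.167 and 0.94 ± 0.142, adjusted *P* = 0.000444, 0.00417 and 0.00383). Within *Ahr* HKO they did not rise on ethanol, unlike *Nqo1*. *Srxn1* was lower (−2.18 ± 0.244, adjusted *P* = 0.00230, edgeR), and *Hmox1* and *Ugdh* were not called (−0.37 ± 0.173 and −0.29 ± 0.133, 0.144 and 0.141). *Txnrd1*, the remaining NRF2 target of the list, rose in WT (0.72 ± 0.0937, 0.00707) and fell in *Ahr* HKO (−0.46 ± 0.113, 0.0228). Of these NRF2 targets, all but *Nqo1* had a called negative interaction (−4.37 to −1.17).

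**Figure D4:**
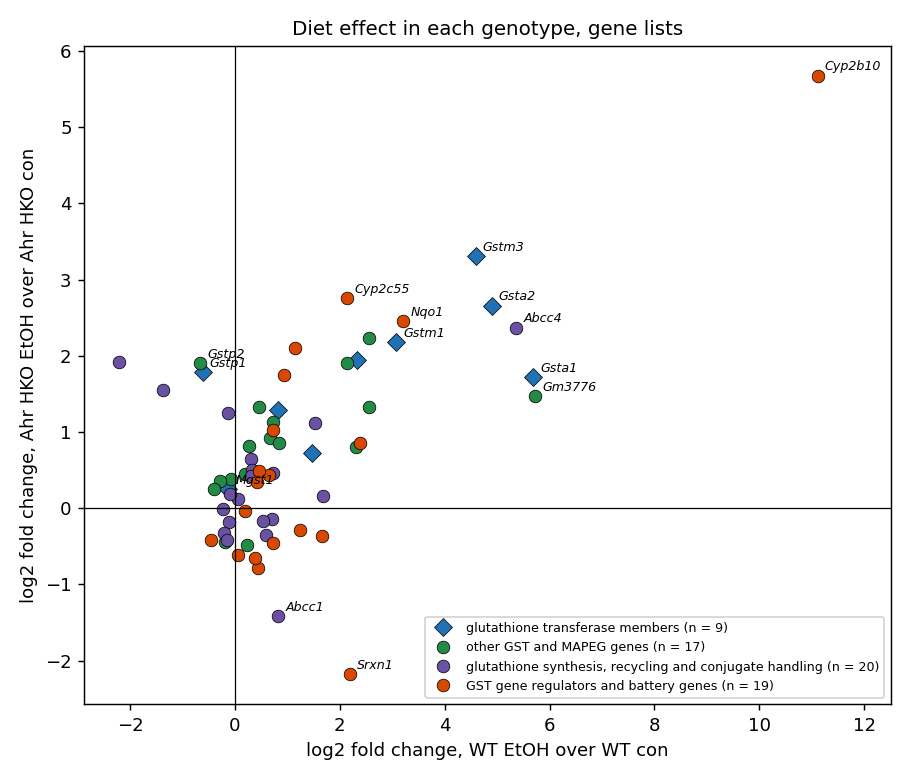
Log2 fold change of ethanol over control diet in WT (horizontal axis) and in *Ahr* HKO (vertical axis) for the glutathione transferase members (diamonds) and for the 3 other gene lists (circles), 1 point per gene with reads in all 4 groups. *Gstp1* and *Gstp2* lie left of 0 and above it, *Srxn1* lies right of 0 and below it (2.19 and −2.18), and most of the members lie in the upper right.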

How the data were processed

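Paired-end poly(A) RNA-seq of 12 livers was processed. Read counts per gene, deposited as whole numbers, carry no normalization. The authors deposited FPKM, counts scaled to gene length and library size, and TPM, which entered no result (sums of 924962 to 987569 per library). The submitters' processing notes name FastQC 0.11.7, Trimmomatic 0.38, HISAT2 2.1.0, Bowtie2 2.3.4.1 and StringTie 1.3.4d.

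Counts were tested with edgeR 4.0.16 (quasi-likelihood) in R 4.3.3. The filterByExpr rule over the 4 groups kept 14038 genes, and TMM factors came from all 12 libraries. Pairwise comparisons used the 6 libraries concerned and the interaction all 12, and *P* values were adjusted by Benjamini-Hochberg over all genes. A gene was called at an adjusted *P* under 0.05. SE is the absolute log2 fold change over the square root of F. The labels name no batch and no shared animals. *P* values measure the spread between livers. The floor of 3 reads per library is 0.0425 to 0.0676 CPM and, like every count, covers counting error only. None of the 66 pairs of libraries were identical. The alternatives were DESeq2 1.42.0, limma 3.58.1 on log2(FPKM + 1) and log2(FPKM + 0.1), other scalings, filters and call rules, a replicate block and leaving out each library. The fits were tested on simulated data.

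Shared 100-base stretches and coding identity (edlib) came from GENCODE vM21 transcripts of the same build, matched for all 10 members. The annotation used for counting is given only as RefSeq identifiers. The members and gene lists were chosen with earlier results of these data known. All 10 members are named, as are up to 6 called genes per list by absolute log2 fold change in WT EtOH against WT con and the 3 most similar genes for 1 member per class. *Gstp2* also appears outside that limit of 6, as the near copy of *Gstp1*. *Cyp1a2*, *Cyp1b1*, *Tiparp*, *Txnrd1*, *Cyp3a11*, *Cyp2c55* and *Gclm* appear outside it too, named after their values were seen. *Gstp3*, listed with the family, has no row in the table.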

Additional observations from a re-analysis of the deposited data

Results flagged for a closer look

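The effect of ethanol differed between genotypes in 3 members, by the interaction test over all 12 libraries (edgeR, adjusted over 14038 genes). Over all genes the share was 11.2% positive and 11.1% negative, and 9 members had a value. The diet effect on *Gsta1* in *Ahr* HKO minus that in WT was −3.97 on the log2 scale (adjusted *P* = 0.00649), and −2.58 with its reads summed with those of *Gsta2* and *Gm10639*, which was not called (adjusted *P* = 0.0516). For *Gstm3* the difference was −1.28 (adjusted *P* = 0.0347), and the call was lost with any one of 8 of the 12 libraries left out (adjusted *P* = 0.0513 to 0.0822). For *Gstp1* it was 2.40 (adjusted *P* = 0.0170), and it was not called by limma on FPKM (adjusted *P* = 0.0675 to 0.150).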

How the results depend on the processing

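The counts of members called here include *Gm10639*, which passed the filter only through WT EtOH and carries no test against that group. Without it, the main fit called 7 higher and 1 lower in WT EtOH against WT con. Between the ethanol groups it called 1 lower in *Ahr* HKO EtOH. Counts and ranges that involve WT EtOH are therefore a description of the processing. In WT EtOH against WT con, 9 members were called, and 7 to 9 under the 11 alternatives other than leaving out a library. Leaving out 1 library gave 5 to 8, the 5 without the third WT con library. Of all genes, 8.72% were called in the main fit and 3.84% to 16.8% in the other fits of all libraries. With 1 library left out the share was 2.52% to 6.97%. In *Ahr* HKO con against WT con 1 member was called under every alternative, and 1 to 3 with 1 library left out, 2 without the second WT con library and 3 without the third *Ahr* HKO con library. Of all genes, 29.7% were called in the main fit and 18.3% to 26.2% with 1 library left out. The call of 2 members in *Ahr* HKO EtOH against WT EtOH depended most on the processing. It was 7 by DESeq2, 4 with the replicate block, 1 with at least 10 counts in every library (which removes *Gm10639*), 0 by limma on quantile-normalized FPKM and 1 by limma on log2(FPKM + 1). It was 0 to 3 with 1 library left out, 0 without the second WT EtOH or the third *Ahr* HKO EtOH library, and 1 without the first WT EtOH or second *Ahr* HKO EtOH library. The share of all genes called moved too. It was 1.06% in the main fit, 10.6% by DESeq2, 1.76% with the block and 0.0697% by limma on quantile-normalized FPKM. With 1 library left out it was 0.07% to 1.3%. The labels do not pair the livers by replicate number. Correlations of deviations between livers of the same number were 0.307, 0.208 and −0.0183 in *Ahr* HKO EtOH against WT EtOH. In the other comparisons they were −0.136 to −0.0142. The block took *Gstp1* out of the calls in both diet comparisons and added *Gsta1* and *Gsta2* in *Ahr* HKO EtOH against WT EtOH.

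Reversed directions were all in values that were not called. For *Mgst1* in WT EtOH against WT con the log2 fold change was 0.0057 with library totals, 0.75 by limma on quantile-normalized FPKM and 0.043 by limma with either pseudocount. In *Ahr* HKO con against WT con, *Mgst1* was at 0.084 after quantile normalization and 0.018 with either pseudocount, *Gsta4* at −0.0087 with upper-quartile factors and −0.051 after quantile normalization, and *Gm10639* at 0.70 and, with *Gm3776* added after the data were seen, 0.71 when its counts were summed with *Gsta1* and *Gsta2*. In *Ahr* HKO EtOH against WT EtOH, *Gsta3* was at −0.057 with library totals and at −0.27, −0.085 and −0.085 by the 3 limma fits, and *Mgst1* at −0.36 after quantile normalization, where its interaction was −0.44. With 1 library left out, values in *Ahr* HKO con against WT con crossed 0 for *Gsta2* (−0.28 to 1.58), *Gsta4* (−0.48 to 0.44), *Gstm1* (−0.46 to 0.20), *Gstm2* (−0.33 to 0.25) and *Mgst1* (−0.058 to 0.070), as did the interaction of *Gsta4* (−0.74 to 0.17). With library totals the median of all genes moved from 0.01 to 0.15 in WT EtOH against WT con, from −0.01 to −0.20 between the ethanol groups and from −0.02 to −0.23 in the interaction. All genes called higher and lower then numbered 1198 and 430 in place of 595 and 629, 70 and 247 in place of 96 and 53, and 906 and 2514 in place of 1576 and 1557. The cause of these changes was not tested. Of 841 single values under an alternative, 736 kept direction and side of the threshold. *Gm10639* has no value where both groups had 0 reads. The smallest level taken as detectable is 3 reads in a library.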
